A study of Homo sapiens with 6 samples.

Results

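The leukocyte integrins are the adhesion receptors through which white blood cells hold on to vessel walls, to other cells and to matrix. The genes described are the β2 subunit gene ITGB2 with its partners ITGAL, ITGAM, ITGAX and ITGAD, the β7 subunit gene ITGB7 with ITGAE, and the α subunit genes ITGA4 and ITGA9. They were taken by name from the platform annotation, as all probe sets that carried 1 gene symbol and that symbol 1 of these 9. The rule found 20 probe sets for 9 genes, of 54613 probe sets and 19775 genes on the arrays. ITGA4 and ITGA9 had 4 probe sets each, ITGB2 had 3, ITGAL, ITGAM and ITGAX had 2, and ITGAD, ITGAE and ITGB7 had 1.

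RNA came from K562, a human erythroleukemia line derived from chronic myeloid leukemia, carrying a stably transfected pTRE-ERG construct that switches on ERG in the presence of doxycycline (DOX). All 6 arrays thus came from transfected cells, of the 3 independent clones CL4, CL9 and CL46. Each clone gave 1 array of cells kept for 8 days in DOX at 1 µg/ml (ERG-induced) and 1 array of cells kept without it (non-induced), hence 3 arrays per group. The time is that of the labels and methods, and a legend of the study gives a shorter one. No DOX-treated culture without the ERG construct is among the arrays used here, so effects of ERG and of DOX cannot be told apart. ERG itself had a mean log2 difference of -0.76 (SE 0.63, adjusted p = 0.671 in limma) over its 4 probe sets (-1.35 in CL4, -0.80 in CL9 and -0.14 in CL46). Its probe sets disagreed, and 0 of the 4 was called. The probe set 241926_s_at was higher by 4.06 in CL46 and 0.82 in CL4, and 211626_x_at by 1.39 in CL9, whereas 213541_s_at was lower in all clones. ERG thus gives no check of which arrays were induced, and each direction below rests on the labels.

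An integrin is a pair of 1 α and 1 β chain, and neither chain reaches the cell surface alone. ITGB2 (CD18) pairs with ITGAL to form LFA-1, the receptor of lymphocytes for the ICAM proteins, with ITGAM to form Mac-1, the complement receptor of neutrophils and monocytes, with ITGAX to form the complement receptor of macrophages and dendritic cells, and with ITGAD, found mainly on tissue macrophages. ITGB7 pairs with ITGA4 in the gut homing receptor of lymphocytes and with ITGAE in the receptor for E-cadherin on intraepithelial T cells. ITGA4 also pairs with ITGB1 to form VLA-4, which holds blood progenitors and lymphocytes to VCAM1 and fibronectin, and ITGA9 pairs with ITGB1 alone.

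All values below are log2 of the deposited ratios. For 18 of the 20 probe sets, 0 is the probe set's median on the 6 arrays, while for 243366_s_at of ITGA4 and 1555335_at of ITGA9 the median ratio was 0.479 and 0.562, so that 0 lies above their median. They show how arrays differ for 1 probe set, and not how strongly a gene was expressed. A feature was called higher or lower in the arrays labelled ERG-induced where its fold reached 2 and its unadjusted, two-sided p in limma lay below 0.05. These are the study's thresholds, and they are not corrected for the number of features. Differences are ERG-induced minus non-induced as labelled, with the standard error (SE) of the fit over 3 arrays against 3.

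Of the 9 genes, 1 fell (ITGAD) and 0 rose, beside a background of 6.32% lower and 3.12% higher among all genes tested. Of the 20 probe sets, 3 fell, 1 of ITGAD and 2 of ITGA4, and 0 rose, beside 8.16% lower and 2.82% higher among all probe sets. Among all called genes, 33.0% were higher, and this share depended on scaling, at 42.8% after centring every array and 47.9% after quantile normalization, which moved the median difference of all genes from -0.03 to 0.08 and 0.11. The same 3 probe sets were the ones whose groups did not overlap, all with the ERG-induced arrays lower, where 15.1% of all probe sets stood apart in that direction and 7.14% in the other. In limma, with Benjamini-Hochberg adjustment at 0.05, neither any of the 9 genes nor any other gene was left (0% of all genes), while 1 of the 9 had an unadjusted p under 0.05. The median difference of the 9 genes was -0.13, against -0.03 for all genes, and that of the 20 probe sets was -0.11, against -0.09 for all probe sets.

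**Figure D1:**
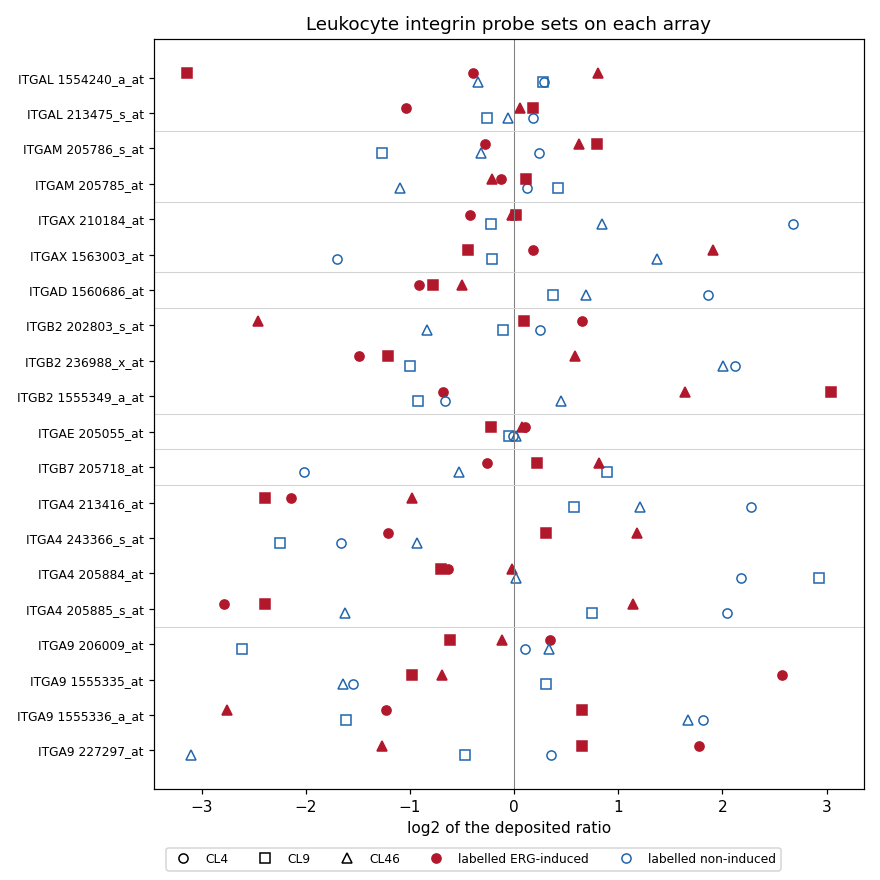
Log2 ratio of the 20 leukocyte integrin probe sets (rows) on each of the 6 arrays, where 0 is the median of 18 of the rows and lies above the median of the others. Symbols give the clone, filled red the arrays labelled ERG-induced and open blue those labelled non-induced. The groups are free of overlap only for the ITGAD probe set and for 2 ITGA4 probe sets, and ITGAE is the tightest row. For 205884_at of ITGA4 the groups nearly touch, at -0.02 and 0.02 in CL46.

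ITGAD was the only leukocyte integrin gene that passed the thresholds. Its 1 probe set, 1560686_at, gave log2 ratios of -0.91, -0.78 and -0.50 in the ERG-induced arrays of CL4, CL9 and CL46, and of 1.86, 0.37 and 0.69 in the non-induced arrays. The lowest non-induced array lay above the highest ERG-induced array. The log2 difference was -1.70 (SE 0.45, adjusted p = 0.252 in limma across all genes), a level 3.25-fold lower. The non-induced array of CL4 was the highest of the 6, and without CL4 the difference was -1.16. It was called lower in each of the 6 settings that alter its values or the model (clone as a block, centring, quantile normalization and each clone left out). The others leave the values of its single probe set as they are.

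The ITGA4 probe sets disagreed with one another. For 213416_at the ERG-induced arrays gave -2.15, -2.39 and -0.98 in CL4, CL9 and CL46 and the non-induced arrays 2.27, 0.58 and 1.20, so that all clones were lower and the groups did not overlap. Its log2 difference, -3.19 (SE 0.61, adjusted p = 0.184 in limma across all probe sets), was the lowest of the 20. For 205884_at the values were -0.63, -0.71 and -0.02 with induction and 2.18, 2.93 and 0.02 without. This fall (-2.16, SE 0.80, adjusted p = 0.344 in limma) was carried by CL4 and CL9, while both CL46 arrays were at the median, and its call was lost without CL4 (-1.84), without CL9 (-1.43), with the clone as a block (unadjusted p = 0.0795 in limma) and after quantile normalization (-2.04).

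The other ITGA4 probe sets showed no call. The probe set 205885_s_at gave -2.78, -2.39 and 1.14 in the ERG-induced arrays and 2.04, 0.74 and -1.62 in the non-induced arrays. It was lower in CL4 and CL9 and higher in CL46, with a difference of -1.73 (SE 1.41), and was called lower without CL46 (-3.98). The probe set 243366_s_at went the other way, at -1.21, 0.30 and 1.18 with induction and -1.66, -2.25 and -0.93 without, and was higher in all 3 clones. Its difference of 1.71 (SE 0.71, adjusted p = 0.397 in limma) was not called, but was with a block for clone (unadjusted p = 0.0449 in limma), with each array centred on its median (1.81), after quantile normalization (1.83) and without CL4 (2.33). It was 1 of the 2 leukocyte integrin probe sets whose deposited median lay below 1.

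**Figure D2:**
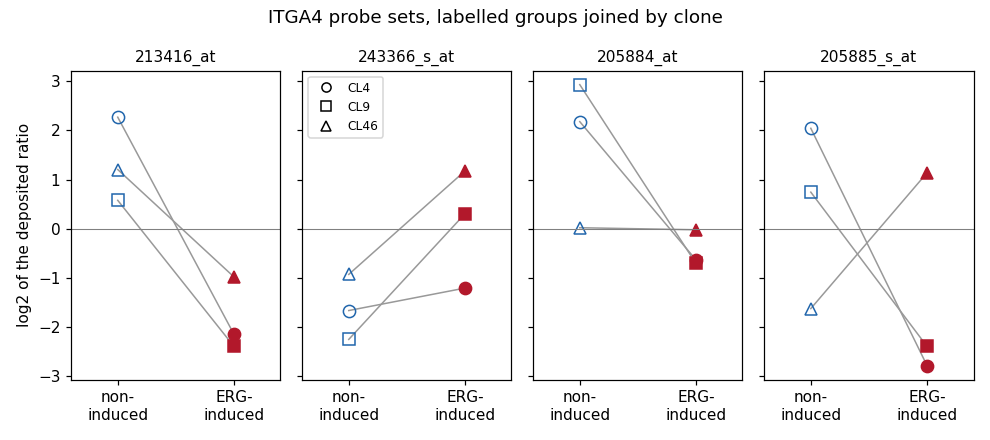
Log2 ratio of each ITGA4 probe set, labelled non-induced on the left and labelled ERG-induced on the right of each panel, with lines joining the arrays of 1 clone. Lines run down in all clones for 213416_at, up in all clones for 243366_s_at, and split by clone for 205885_s_at.

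Averaged over its 4 probe sets, ITGA4 differed by -1.35 (SE 0.67, adjusted p = 0.466 in limma), with -2.90 in CL4, -1.80 in CL9 and 0.66 in CL46. ITGA4 was not called, and the groups overlapped. It was called lower in 3 of 11 settings, namely without probe sets ending in _x_at or _s_at (-2.68), without probe sets of a median below 1 (-2.36) and without CL46 (-2.35). Without CL4 the difference was -0.57. The gene-level value thus depended on which probe sets were averaged and on which clones were kept.

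The ITGA4 promoter is shown because 2 of the gene's probe sets were called, and that of ITGAE because its probe set varied least. Both are the 250 bases before the RefSeq start (GRCh38.p14), printed 5′ to 3′ on the gene's strand, with GGAA or its reverse complement TTCC, the core recognized by ETS factors such as ERG, in capitals. ITGA4 lies at chr2:181457136-181457385 on the plus strand and ITGAE at chr17:3801189-3801438 on the minus strand.
ITGA4: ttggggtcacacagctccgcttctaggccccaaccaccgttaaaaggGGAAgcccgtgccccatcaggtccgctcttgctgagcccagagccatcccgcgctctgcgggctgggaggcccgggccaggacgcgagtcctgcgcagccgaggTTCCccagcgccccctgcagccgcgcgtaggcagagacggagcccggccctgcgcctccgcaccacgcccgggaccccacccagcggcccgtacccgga
ITGAE: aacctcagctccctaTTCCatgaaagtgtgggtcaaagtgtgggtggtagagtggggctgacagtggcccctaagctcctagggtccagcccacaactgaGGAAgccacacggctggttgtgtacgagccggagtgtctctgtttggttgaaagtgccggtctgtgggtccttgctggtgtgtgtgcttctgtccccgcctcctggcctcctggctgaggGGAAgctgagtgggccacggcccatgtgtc

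Of the 9 genes, 4 had a promoter in the RefSeq table, with 2 matches of GGAA on either strand for ITGA4, 3 for ITGAE and 4 each for ITGAM and ITGB7. ITGAL, ITGAX, ITGAD, ITGB2 and ITGA9 had no entry. At least 1 match was present in 92.7% of 35116 promoters of this length, where the median was 3. The longer motif CCGGAAG, which contains GGAA, was found on either strand in 8.52% of all promoters and in 0 of these 4. Binding of ERG was not measured on the arrays.

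ITGB2, the chain shared by LFA-1, Mac-1 and their relatives, had 3 probe sets with 3 different patterns. The probe set 236988_x_at was lower in all clones, at -1.49, -1.21 and 0.59 in the ERG-induced arrays of CL4, CL9 and CL46 and 2.12, -1.004 and 2.003 in the non-induced arrays. The probe set 1555349_a_at stood at -0.68, 3.04 and 1.64 with induction and -0.67, -0.92 and 0.45 without, and was thus higher in CL9 and CL46 and level in CL4. The probe set 202803_s_at gave 0.65, 0.10 and -2.46 with induction and 0.25, -0.11 and -0.83 without. Their log2 differences were -1.75 (SE 1.05), 1.71 (SE 1.01) and -0.34 (SE 0.89), and none was called. The first was called lower without CL9 (-2.52) and the second higher without CL4 (2.57). Averaged, ITGB2 differed by -0.13 (SE 0.49, adjusted p = 0.946 in limma), with -1.08, 1.32 and -0.62 in the clones.

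ITGAL, the α chain of LFA-1, differed by -0.60 (SE 0.52, adjusted p = 0.685 in limma), with -0.95 in CL4, -1.49 in CL9 and 0.64 in CL46. For its probe set 1554240_a_at the arrays labelled ERG-induced gave -0.39, -3.14 and 0.81 and those labelled non-induced 0.28, 0.28 and -0.35. The ERG-induced array of CL9 was the lowest value among all 20 probe sets. The other probe set, 213475_s_at, spanned -1.04 to 0.19, and its difference of -0.22 (SE 0.42) was not called.

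ITGAM, the α chain of Mac-1 and a common marker of myeloid cells, differed by 0.47 (SE 0.34, adjusted p = 0.632 in limma), at -0.39 in CL4, 0.88 in CL9 and 0.91 in CL46. Its probe set 205786_s_at stood at -0.28, 0.79 and 0.62 with induction and 0.24, -1.27 and -0.32 without, and was called higher without CL4 (1.50). The probe set 205785_at differed by 0.11 (SE 0.47). Neither was called with all 3 clones.

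ITGAX, a marker of dendritic cells and macrophages, differed by -0.26 (SE 0.49, adjusted p = 0.874 in limma). Its probe set 210184_at gave -0.42, 0.02 and -0.02 with induction and 2.68, -0.22 and 0.84 without, and 1563003_at gave 0.19, -0.45 and 1.91 with induction and -1.70, -0.21 and 1.37 without. In CL4 the first was lower with induction and the second higher, and the groups overlapped for both.

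In the RefSeq annotation ITGAM, ITGAX and ITGAD follow one another on chromosome 16, with 0 protein-coding genes between neighbouring members, and 35 lie between ITGAL and ITGAM. The neighbours differed by 0.47, -0.26 and -1.70, so that only the last was called.

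**Figure D3:**
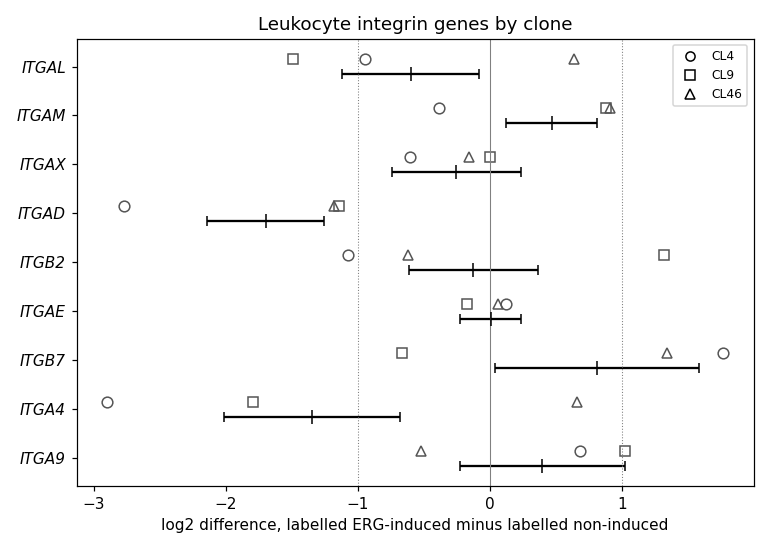
Log2 difference of the 9 genes between the arrays labelled ERG-induced and those labelled non-induced (positive, higher with induction), averaged over their probe sets. Symbols show CL4, CL9 and CL46, the black marks the mean ± SE of the limma fit and the dotted lines a fold of 2. Only ITGAD lies on 1 side of 0 in all 3 clones.

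ITGAE, the α chain that binds E-cadherin, did not pass the thresholds and varied least of all members. Its log2 ratios were 0.11, -0.22 and 0.08 in the ERG-induced arrays of CL4, CL9 and CL46 and -0.02, -0.05 and 0.02 in the non-induced arrays. The highest and the lowest array differed 1.26-fold, and the log2 difference was 0.00 (SE 0.23, adjusted p = 0.998 in limma). Its residual SD between arrays of a group, 0.13, lay at percentile 2.72 of all probe sets.

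ITGB7, the partner of ITGAE and ITGA4, ranged much more widely on its single probe set. It stood at -0.26, 0.22 and 0.82 with induction and at -2.02, 0.89 and -0.53 without. It was higher in CL4 and CL46 and lower in CL9, with a difference of 0.81 (SE 0.77, adjusted p = 0.720 in limma), and the groups overlapped.

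ITGA9, a receptor for tenascin C and VCAM1, differed by 0.40 (SE 0.62, adjusted p = 0.846 in limma), with CL4 at 0.68, CL9 at 1.03 and CL46 at -0.52. The probe set 227297_at gave 1.77, 0.65 and -1.27 with induction and 0.35, -0.47 and -3.10 without. It was higher in each clone, although the groups overlapped. Both groups ran from highest in CL4 to lowest in CL46, with 1 array per clone and group. The difference of this probe set, 1.46 (SE 1.18), was called only when clone entered as a block (unadjusted p = 0.0114 in limma). The probe set 1555336_a_at pointed the other way, at -1.23, 0.65 and -2.76 with induction and 1.82, -1.61 and 1.67 without, and was called lower without CL9 (-3.73). The remaining probe sets, 206009_at and 1555335_at, differed by 0.60 (SE 0.87) and 1.26 (SE 1.13).
ITGB1, the chain that both ITGA4 and ITGA9 need, differed by -0.38 (SE 0.60, adjusted p = 0.846 in limma) over 7 probe sets, with -1.24, 1.21 and -1.10 in the clones. It is named as their partner and was not called.

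Probe sets of 1 gene agreed in sign for some of these genes and not for others. Of the 6 genes with several probe sets, 2 (ITGAL and ITGAM) had mean differences of 1 sign in all of them, where 45.7% of 10523 such genes on the arrays did. The gap between the highest and the lowest probe set difference was 4.90 for ITGA4, 3.46 for ITGB2, 3.19 for ITGA9 and 1.97 for ITGAX, against 0.76 for ITGAL and 0.72 for ITGAM, with a median gap of 1.02 over all such genes. Gap and agreement both depend on the number of probe sets. ITGAL, ITGAM and ITGAX had 2, ITGB2 had 3, and ITGA4 and ITGA9 had 4, while the values over all genes pool every number. Across clones, 14 of the 20 probe sets lay on both sides of 0, 4 were lower in all clones and 2 were higher in all. The clone counts were not made over all probe sets, so they do not set these genes apart from others.

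The arrays of a group differed more for most leukocyte integrin probe sets than for the typical probe set. The residual SD was above the median of all probe sets, 0.772, in 15 of the 20, and the median of the 20 was 1.16. The widest were 205885_s_at of ITGA4 (2.02) and 1555336_a_at of ITGA9 (1.83), at percentiles 92.8 and 88.0. The deposited ratios do not hold the signal over background of these probe sets. At this spread, 8 probe sets differed by 1 or more on the log2 scale without a call, a count not made over all probe sets.

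**Figure D4:**
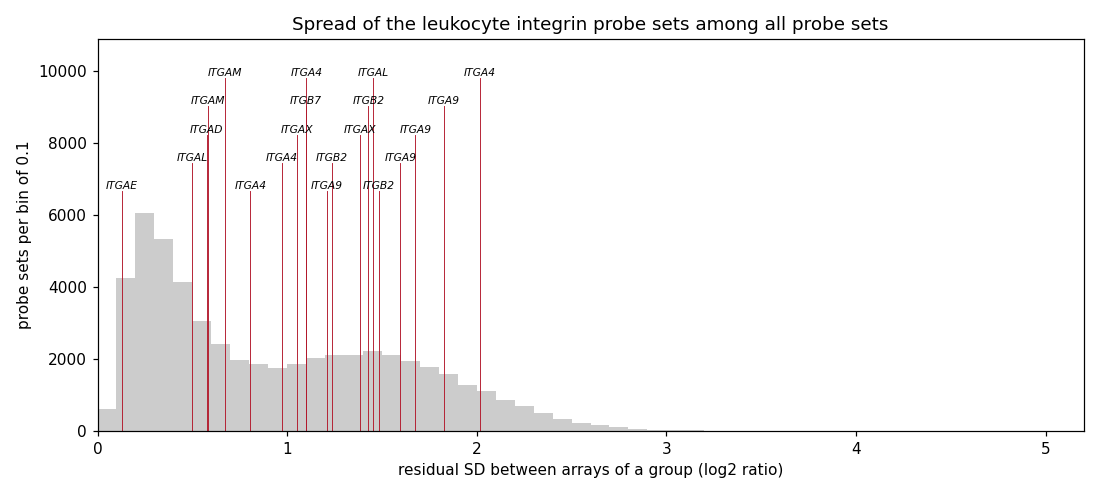
Number of probe sets (grey bars, bins of 0.1) by residual SD of the log2 ratio between arrays of a group, over all 54613 probe sets. Red lines mark the 20 leukocyte integrin probe sets, named by gene. ITGAE stands at 0.13, and 15 of the 20 lie above the median of 0.772.

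The ligands of these receptors were examined as a list of 19 genes. Of these, 18 were measured, 0 rose and 0 fell, beside 3.12% higher and 6.32% lower among all genes. In limma, 2 of them had an unadjusted p under 0.05 and 0 an adjusted one, and their median difference was 0.25, against -0.03 for all genes. The 2 were ICAM3 and ICAM1, both bound by LFA-1 and named after their values were seen. ICAM3 gave 0.55, 0.13 and 0.62 in the ERG-induced arrays of CL4, CL9 and CL46 and -0.83, -0.15 and -0.45 in the non-induced arrays. Its groups did not overlap, as in 7.98% of all genes in that direction, and its difference was 0.91 (SE 0.30, adjusted p = 0.316 in limma). ICAM3 was called higher with each array centred on its median (1.02), after quantile normalization (1.13) and without CL9 (1.23).
ICAM1 stood at 0.01, 0.28 and 0.54 with induction and -0.63, -0.31 and -0.45 without, again with no overlap, at a difference of 0.74 (SE 0.26, adjusted p = 0.336 in limma). ICAM2, a further LFA-1 ligand named after its value was seen, differed by 0.30, 0.35 and 0.58 in the clones. VCAM1, the ligand of ITGA4 and ITGA9, differed by 2.09 and 1.95 in CL4 and CL9 and -0.33 in CL46. Its mean difference was 1.23 (SE 0.94, adjusted p = 0.643 in limma), its groups overlapped and it was not called. MADCAM1, the gut ligand of the ITGA4 and ITGB7 pair, differed by -0.15 (SE 0.35). Both were named after their values were seen.

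**Figure D5:**
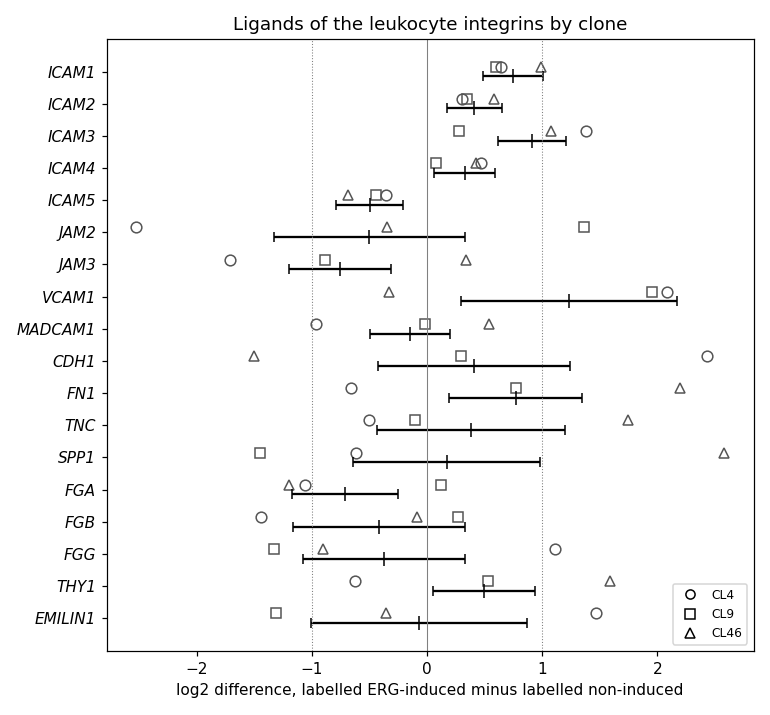
Log2 difference of the 18 measured ligand genes, positive where the arrays labelled ERG-induced were higher. Symbols show the clones, the black marks the mean ± SE of the limma fit and the dotted lines a fold of 2. ICAM1, ICAM2, ICAM3 and ICAM4 lie above 0 in every clone, ICAM5 lies below 0 in every clone, and the others lie on both sides. ICAM4 and ICAM5 were named after their values were seen.

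Of 38 genes that activate integrins or act below them, 35 were measured, 2 rose and 0 fell, with a median of 0.17. Among all genes, 3.12% were called higher and 6.32% lower, and no list was tested against these shares. FYB1, the adaptor that links T cell receptor signals to LFA-1, rose 2.51-fold (log2 difference 1.33, SE 0.31, adjusted p = 0.230 in limma), at 0.78 in CL4, 1.18 in CL9 and 2.02 in CL46. Its call was lost without CL46 (0.98) and with the median of its 5 probe sets (0.59), of which 1 was called higher (4.17-fold). FGR, a SRC family kinase of myeloid cells, rose 7.53-fold (2.91, SE 1.15, adjusted p = 0.380 in limma), with 4.47, 3.43 and 0.84. Its call was lost without CL4 (2.13) or CL9 (2.65), and in the fit over probe sets its single probe set was not called (unadjusted p = 0.0513 in limma). FERMT3 (kindlin-3), which switches on integrins in blood cells, differed by 0.35 (SE 0.24) and TLN1 (talin) by 0.09 (SE 0.30), both named after their values were seen.

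The 16 other integrin chains measured, of 17 listed, held 3 that rose (ITGA3, ITGA10 and ITGB3) and 1 that fell (ITGAV), with a median of 0.23. The background of 3.12% higher and 6.32% lower among all genes stands beside each list of this paragraph. ITGB3 lost its call without CL9 (1.12), without CL46 (1.33), with the median over probe sets (1.11) and without probe sets ending in _x_at or _s_at (0.50). Whether these chains and the leukocyte integrins differ as groups was not tested. Of 12 selectins and selectin ligands, which start the contact that leukocyte integrins make firm, 11 were measured, 1 rose (SELP) and 0 fell, with a median of 0.42. Of 16 transcription factors of myeloid and lymphoid cells, 15 were measured, 1 rose (GATA3) and 0 fell, with a median of 0.31. The call of GATA3 was lost when any 1 clone was left out (1.10, 1.42 and 1.50 without CL4, CL9 and CL46), with the median over probe sets (1.13) and without probe sets ending in _x_at or _s_at (0.58). SPI1, a main activator of ITGB2 and ITGAM named after its value was seen, differed by 2.60, 0.84 and 0.35 in the clones, a mean of 1.26 (SE 0.58, adjusted p = 0.437 in limma), and was not called.

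Marker lists of blood lineages were set beside these values, with the same background of 3.12% of all genes called higher and 6.32% lower. Of 19 monocyte and granulocyte markers, 17 were measured, 5 rose (FCER1G, LST1, CSF3R, TYROBP and, named after its value was seen, AIF1) and 0 fell. Of the 17, 10 lay above 0 and 7 below, with a median difference of 0.30. Their mean log2 ratio ran from -0.14 to 0.57 in the ERG-induced arrays and from -0.99 to -0.67 in the non-induced arrays. FCER1G, with the highest difference of all genes (5.93), is part of these means. The call of AIF1 was lost without CL4 (1.41) or CL46 (1.70). Of 14 megakaryocyte markers, 12 were measured, 2 rose (SELP and GP1BA) and 0 fell, with means of -0.48 to 1.02 and -1.11 to -0.55. Of 16 lymphocyte markers, 15 were measured, 0 rose and 3 fell (IL7R, CD3D and LCK), with means of -0.60 to -0.28 and -0.01 to 0.03. Of the 15, 6 lay above 0 and 9 below, with a median difference of -0.36. The 2 probe sets of IL7R differed by -4.07 (called lower) and -0.65 (not called), the second being higher by 1.04 in CL4. Those of LCK differed by -2.40 (called lower) and -0.32 (not called). The calls of CD3D and LCK were lost without CL9 (-1.08 and -1.01) or CL46 (-1.21 and -1.02), and that of CD3D also with arrays centred (-1.13) or quantile normalized (-1.01). With the clone as a block LCK was not called (unadjusted p = 0.0785 in limma). Of 18 erythroid markers, 11 were measured, 0 rose and 1 fell (TFRC), with means of -0.26 to 0.06 and -0.14 to 0.15. Of the 11, 7 lay above 0 and 4 below, with a median difference of 0.23, so the fall of TFRC was not that of the list. As the ratios carry no brightness, the presence of K562's erythroid markers could not be checked, and no marker can be said to be absent. The 3 ribosomal RNA controls of the array differed by 1.21 in CL4, 0.59 in CL9 and 0.82 in CL46, where ITGAD differed by -2.77, -1.15 and -1.18. The part of lineage markers and of RNA quality in the differences of the leukocyte integrins was not tested, and in bulk RNA fewer cells with a transcript and less of it per cell cannot be told apart.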

How the data were processed

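The authors hybridized RNA of 3 K562 pTRE-ERG clones, with and without DOX, to 6 Affymetrix U133 Plus 2.0 arrays and analysed it in GeneSpring. They deposited a linear ratio for every probe set and array. In 50737 of 54675 probe sets the median over the arrays was 1 (tolerance 1e-05), and in 3938 it was below 1, so brightness is lost. Background correction and array scaling: not given in the sources used here. Leaving out 62 control probe sets, 54613 were tested, of which 41091 carried 1 gene symbol, 1801 several and 11721 none. By gene ID, 41037 matched RefSeq (GRCh38.p14), used for names, neighbours and promoters. Value columns of no mapped sample numbered 0.

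Ratios were log2 transformed. Group differences were fitted with limma 3.58.1 in R 4.3.3 (lmFit, eBayes, Benjamini-Hochberg) over all probe sets, and over 19775 genes after averaging probe sets. The fit was tested on simulated data. Figures were drawn with matplotlib 3.10.9. The members and gene lists were chosen with earlier results of these data known. Named were all members, and up to 4 called genes of each list with the smallest p; ITGB1 and ERG are given as partner and as target, and any other gene is marked in the text. Alternatives were the clone as a block, centring each array on its median, quantile normalization, a floor of 0.1 on ratios, leaving out probe sets ending in _x_at or _s_at or with a median below 1, the median over probe sets, and leaving out each clone. The clone pairs the arrays, since both come from 1 line (correlation across genes of same-clone deviations from group means 0.04, 0.05 and 0.03 in CL4, CL9 and CL46). The clones are called independent in the methods, and each culture has 1 array.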

Additional observations from a re-analysis of the deposited data

How the results depend on the processing

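ITGAD (log2 difference -1.98 to -1.16 with a clone left out) and the ITGA4 probe set 213416_at were called lower in all 6 settings that alter their values or the model, while ITGAL, ITGAM, ITGAX, ITGB2, ITGAE, ITGB7 and ITGA9 were called as genes in 0 of 11. The number of leukocyte integrin genes called lower became 2, ITGA4 being added, without probe sets ending in _x_at or _s_at and without those of a median below 1, and was 1 to 2 with a clone left out. The number of their probe sets called higher, 0, became 2 with the replicate block of clones, 1 with arrays centred and 1 after quantile normalization, and was 0 to 3 with a clone left out. Signs turned only for values without a call. ITGB2 was 1.71 without probe sets ending in _x_at or _s_at (1 probe set left), 0.0726 with the median over probe sets and -0.85 to 0.35 with a clone left out. With a clone left out, ITGAE and its probe set ran from -0.0563 to 0.0929, 1554240_a_at of ITGAL from -2.05 to 0.24, 213475_s_at of ITGAL from -0.55 to 0.28, 205785_at of ITGAM from -0.28 to 0.32, 202803_s_at of ITGB2 from -0.71 to 0.30, 206009_at of ITGA9 from -0.11 to 1.12 and 1555335_at of ITGA9 from -0.17 to 2.53.

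Among the lists, ligands called higher became 1 with arrays centred and 1 after quantile normalization (0 to 1 with a clone left out). Activation genes called higher became 1 without probe sets ending in _x_at or _s_at and 1 with the median over probe sets, which also called 1 lower (1 to 2 higher with a clone left out). In the first of these settings FGR had no probe set left. Selectins called higher became 2 with the replicate block (1 to 3 with a clone left out). Transcription factors called higher became 2 with arrays centred, 2 after quantile normalization, 0 without probe sets ending in _x_at or _s_at and 0 with the median over probe sets (0 to 1 with a clone left out). Without probe sets ending in _x_at or _s_at, monocyte and granulocyte markers called higher became 3 and lymphocyte markers called higher 1. LST1 and AIF1 have only such probe sets and were not measured in that setting. With a clone left out, other integrin chains called lower numbered 1 to 2, megakaryocyte markers called higher 2 to 4, monocyte and granulocyte markers called higher 4 to 6, lymphocyte markers called higher 0 to 1 and lymphocyte markers called lower 1 to 3. The replicate block changed no other call of a leukocyte integrin than those given in the report. Protein sequences were not used here. Apart from genes left without a probe set, the cause of these changes was not tested. With 3 arrays per group, the number of arrays limits the precision, and signal over background is unknown.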
